A study of Miniopterus schreibersii with 14 samples.

Results

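The bent-wing bat hindlimb was followed from the limb bud at stage S14 to the foot plate at stages S15-17, where digits and the tissue between them can be dissected apart. The later hindlimb is represented by 2 messenger RNA libraries, 1 of digits I-V and 1 of the interdigital tissues between them. The earlier hindlimb is represented by 3 libraries, of the anterior, middle and posterior parts of the bud. These 5 libraries were taken from a series of 14, which also covers the forelimb at the same stages and the fetal metacarpals and metatarsals. All embryos were Miniopterus schreibersii, with no treatment named in the labels. A component was kept where its scores over the 5 hindlimb libraries averaged 20 or more, which left 16022 of 64618 components and 98.61% of the hindlimb score. A score is the authors' normalised count rounded to a whole number, and a component is a numbered sequence unit that may cover a transcript in full or in part.

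The vertebrate limb bud is a mesenchymal core under an ectodermal jacket, and signals along its anterior to posterior axis pattern the future hand or foot plate, the autopod. Mesenchyme then condenses into cartilage rays that become the digits, while the cells between the rays form interdigital tissue. In limbs with free digits, such as the bat foot, much of the interdigital tissue is later removed by programmed cell death, whereas in the bat wing it persists as membrane. A comparison of the bud with later digits and interdigital tissue therefore spans the step at which the autopod divides into these tissues.

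Components carry assembly numbers, and none of the 64618 identifiers matched a RefSeq table of 22775 genes of this species (0 matches). No component is given a gene name or role here, and the labelled tissues were not checked against marker genes. Each library is a different part, so the parts of 1 stage stand in as replicates, and no part was sequenced more than once. The p-values therefore set the stage difference against the spread between unlike parts, which includes differences between regions of the limb. Whether parts came from 1 embryo or several is not stated in the labels, and no spread between embryos could be estimated. Stage and dissection cannot be told apart, since bud parts and digit parts were cut along different lines. In these tissue pieces, fewer cells of a type and less RNA per cell cannot be told apart either. The recovered depth was 5700318 reads in hindlimb digits and 6828498 in hindlimb interdigital tissue. The anterior, middle and posterior buds held 6386337, 5237379 and 6693330 reads.

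The distance between stages was larger than the distance between parts of a stage in every pair of hindlimb libraries. It was measured as the root mean square difference of log2(score + 1) over the 16022 kept components. Between a S15-17 library and a S14 bud it ran from 0.823 to 0.904 over 6 pairs. Digits and interdigital tissue were 0.519 apart, and the bud parts 0.39 to 0.506 apart. Counting error alone would give 0.257 to 0.305 in these 10 pairs. Within the bud, the anterior and posterior parts were nearest to each other, at 0.39, and the middle part was 0.481 from the anterior and 0.506 from the posterior part. The middle part was also the bud library farthest from both later libraries, at 0.904 from digits and 0.898 from interdigital tissue, and it had the fewest reads of the 5.

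**Figure D1:**
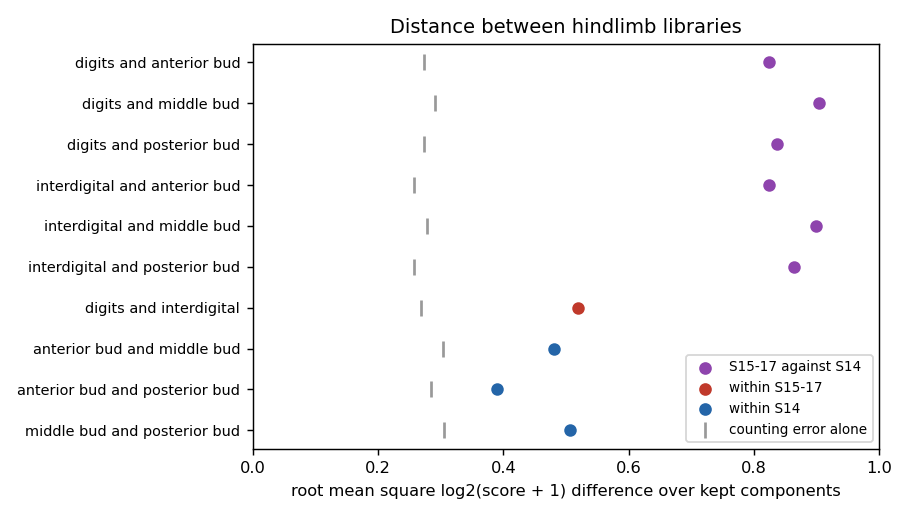
Root mean square log2(score + 1) difference over kept components for each of the 10 pairs of hindlimb libraries, with 1 row per pair; grey ticks give the value that counting error alone would produce. All 6 pairs across stages lie between 0.823 and 0.904, to the right of the 4 pairs within a stage, which lie between 0.39 and 0.519.

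Between the S14 bud and the S15-17 foot, 4419 components differed, which is 27.6% of the 16022 tested with limma at a Benjamini-Hochberg adjusted p under 0.05. Of these, 1595 (9.96% of those tested) were higher at S15-17 and 2824 (17.6%) were lower. The split depended on how libraries were scaled. On the deposited scale, score totals were 9767535 in digits and 9290854 in interdigital tissue. The anterior, middle and posterior buds had higher totals, of 10403578, 10906463 and 10719504. Upper-quartile scaling gave 2128 higher and 2028 lower, and shifted the median log2 difference of all tested components by 0.111, from -0.082 to 0.029. A total of 3623 components were called on both scales. The count fell to 2909 without the anterior bud and to 2778 without the posterior bud. A total of 2139 components, 687 higher and 1452 lower, were called in all 5 fits that left out 1 library. That is 48.4% of the calls.

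In 8786 components (54.8% of those tested) both S15-17 scores lay on 1 side of all 3 bud scores, 3526 (22%) above them and 5260 (32.8%) below. The groups were apart in this way for 1594 of the 1595 components called higher and for 2823 of the 2824 called lower. Since the test itself favours such components, these counts only describe the calls. The distance left between the nearest S15-17 library and the nearest bud was modest in most of them. Its median was 0.63 on the log2(score + 1) scale, or 1.55-fold, in components called higher and 0.46, or 1.38-fold, in those called lower. A gap of over 2-fold was found in 434 components called higher and 327 called lower, and a gap of over 4-fold in 101 and 81.

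**Figure D2:**
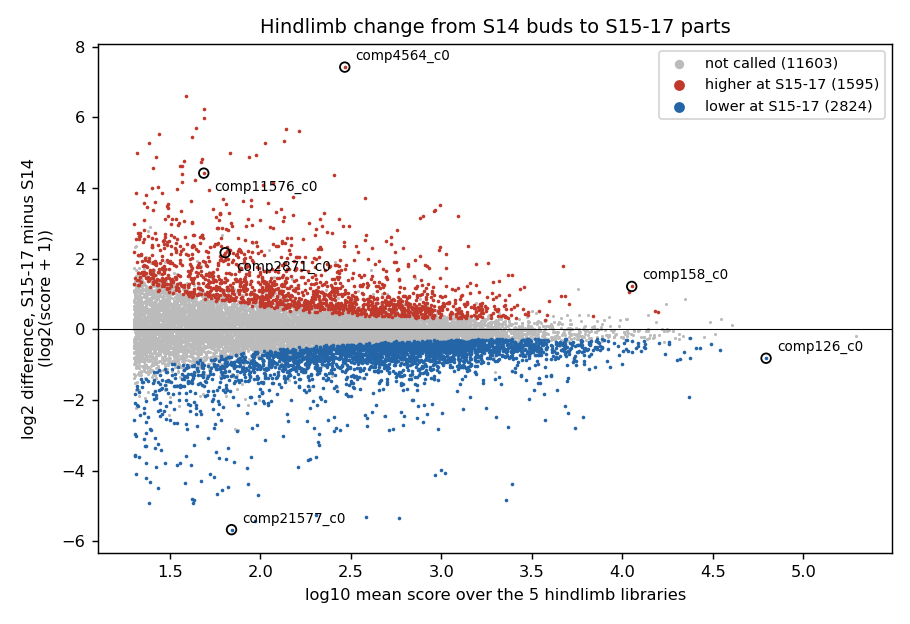
Log2(score + 1) difference between the S15-17 hindlimb and the S14 hindlimb bud (vertical axis) against the log10 mean score over the 5 libraries (horizontal axis), with 1 point per kept component; red and blue points are the 1595 called higher and the 2824 called lower, and circles mark the components named in the text. Blue points crowd the high-scoring right side, while the highest differences lie at lower scores.

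Components called higher had larger differences than those called lower. The median log2 difference was 1.05 in the 1595 called higher, with the middle of the distribution between 0.68 and 1.61, and -0.69 in the 2824 called lower, with the middle between -1.01 and -0.52. Over all tested components the median was -0.08. Differences of over 4-fold were found in 257 components called higher (16.1% of them) and 167 called lower (5.91%). Of these, 32 higher and 26 lower components passed 16-fold. Under upper-quartile scaling the 4-fold counts were 297 higher and 146 lower. A test against a 2-fold change rather than against no change called 181 components, 98 higher and 83 lower. The directions also differed in abundance, with median scores of 168.2 in higher calls and 534.0 in lower ones. The mean score behind these medians and the classes below covers more bud than later libraries. In the lowest of 4 equal classes by mean score, 133 of 384 higher calls and 83 of 220 lower calls passed 4-fold. The counts were 85 of 491 and 38 of 513 in the next class. They were 27 of 413 and 20 of 773 above it, and 12 of 307 and 26 of 1318 in the highest. Higher calls thus had the larger share in all classes but the lowest.

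Component comp4564_c0 had the highest log2 difference of all called components. It scored 475 in hindlimb digits and 977 in hindlimb interdigital tissue, against 2, 6 and 2 in the anterior, middle and posterior buds. It was thus nearly missing from every bud part and present in both later parts, more so in interdigital tissue than in digits. Its mean was 726 ± 355 (SD, n = 2) at S15-17 and 3.33 ± 2.31 (SD, n = 3) at S14. The libraries held 995 reads of it at S15-17 and 5 at S14, a ratio of 259.4 after scaling (95% exact interval for counting error 110.8 to 800.5). The log2 difference in limma was 7.42 (SE 0.49, adjusted p = 5.58e-05), and it ran from 6.90 to 7.94 when 1 library was left out. With 5 bud reads it was kept only through its S15-17 scores, and it was picked as the most extreme, so these values are descriptive. In fetal metatarsals, which were not part of the test, it scored 0.

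Component comp158_c0 rose by a moderate fold on a high score, and gained the most score of the components called higher. It scored 18012 in digits and 16175 in interdigital tissue, against 6733, 8157 and 7264 in the anterior, middle and posterior buds. The 2 later scores were close to each other, and both lay well above the highest bud score. The mean was 17094 ± 1299 (SD, n = 2) at S15-17 and 7385 ± 719.6 (SD, n = 3) at S14. The log2 difference was 1.21 (SE 0.10, limma adjusted p = 0.000176). It scored 21795 in fetal metatarsals.

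Component comp21577_c0 had the lowest log2 difference of all called components. It scored 0 in digits and 4 in interdigital tissue, against 117, 131 and 94 in the anterior, middle and posterior buds. Only 3 reads remained at S15-17, all in interdigital tissue, against 194 reads over the buds. The scaled read ratio was 0.0202 (95% exact interval for counting error 0.00412 to 0.0598). In limma the log2 difference was -5.67 (SE 0.63, adjusted p = 0.000557), between -6.83 and -4.51 with 1 library left out. It too was kept only through 1 stage, here the buds, and was picked as the most extreme, so these values are descriptive. Fetal metatarsals scored 0.

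Component comp126_c0 lost the most score of the components called lower. It scored 37883 in digits and 47917 in interdigital tissue, against 78527, 75635 and 71480 in the anterior, middle and posterior buds. The 3 bud parts were close to each other and well above both later parts, and digits were lower than interdigital tissue. The mean was 42900 ± 7095 (SD, n = 2) at S15-17 and 75214 ± 3542 (SD, n = 3) at S14. The log2 difference was -0.82 (SE 0.11, limma adjusted p = 0.00135). At 12146, the fetal metatarsal score was lower than in all 5 earlier hindlimb libraries.

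**Figure D3:**
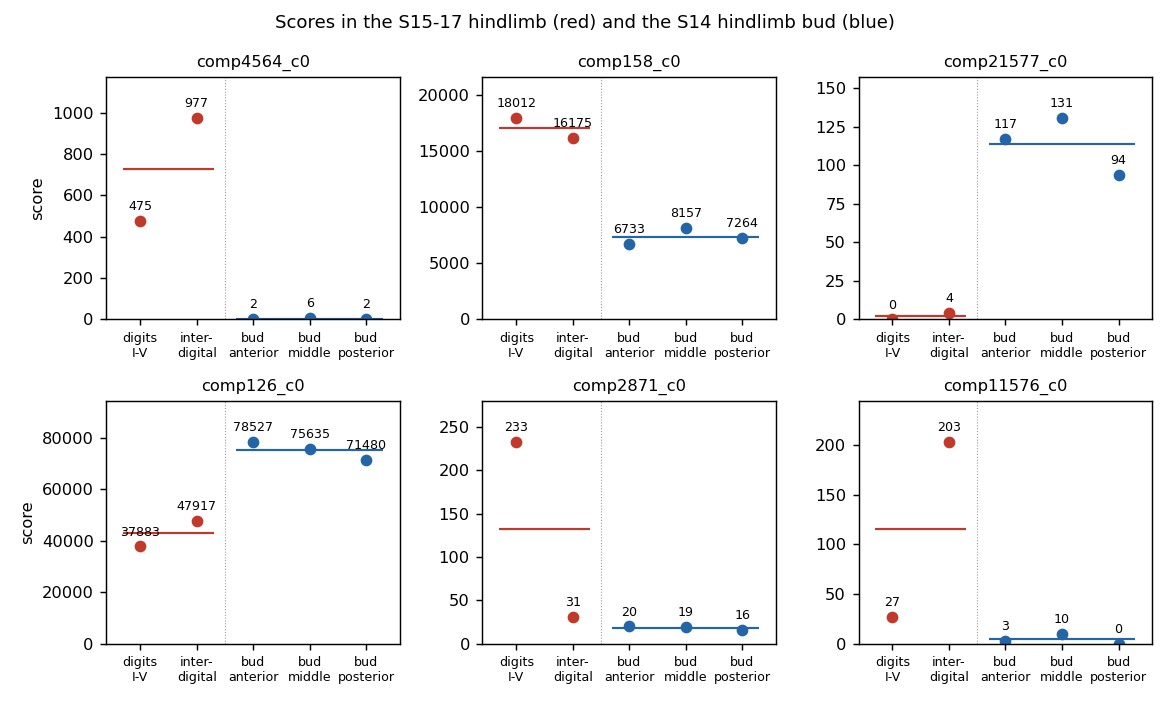
Score (vertical axis, from 0, with its own scale in each panel) of 6 named components in the 2 S15-17 hindlimb libraries (red) and the 3 S14 bud libraries (blue); points are single libraries with the score printed beside them, and lines are group means. The first 4 components separate the stages in all 5 libraries by wide margins, while comp2871_c0 and comp11576_c0 are high in 1 of the 2 later libraries.

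Near absence from 1 stage was rare. At most 5 reads over the 3 buds were found for 16 of the 16022 kept components, with mean S15-17 scores of 51.0 to 726. At most 5 reads over both S15-17 libraries were found for 33, with mean bud scores of 30.7 to 120. The 2 counts cannot be compared. The minimum over 5 libraries asks for a higher mean over 2 libraries than over 3, and the reads limit covers unlike depths. Such components were kept only through the stage at which they are high, so their difference follows from the selection. Components just inside the minimum, with a mean from 20 to under 21, numbered 207, of which 35 differed upward by over 2-fold at S15-17 and 22 downward. Just outside it, from 19 to under 20, there were 240, with 40 such differences upward and 20 downward.

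The balance of higher and lower calls moved with abundance. Kept components were divided into 4 classes of equal size by mean score, which is not corrected for length. That mean was taken over the libraries that made the calls, which include more buds than later libraries. A component high in the buds could thus fall in a higher class than one equally high at the later stage. In the lowest class, with mean scores of 20 to 60.4, 384 components were called higher and 220 lower. The next class up had 491 higher and 513 lower, and the one above it had 413 and 773. In the highest class, with mean scores from 597.4 upward, 307 were called higher and 1318 lower. The share of lower among called components thus ran through 36.4%, 51.1%, 65.2% and 81.1% from the lowest to the highest class. Upper-quartile scaling gave 29.2%, 37.4%, 47.8% and 66.4%, and median-centred libraries 33.0%, 46.7%, 59.9% and 76.6%. The gradient was present on all 3 scales, but rescaling libraries does not remove the greater weight of the buds in the mean. How much of the gradient comes from that weight was not tested. In the buds, median scores were 111.0 in components called higher and 631.2 in those called lower. At the later stage they were 249.0 and 375.2. Which direction prevailed in the middle classes depended on the scale. The share called also rose with abundance: 15.1% of the lowest class and 40.6% of the highest were called, with a median absolute log2 difference among calls of 1.63 and 0.57.

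The called components accounted for a large part of the score of these libraries. Those called lower held 25.7% of the total score in digits and 26.7% in interdigital tissue, against 36.3%, 36.6% and 36.2% in the anterior, middle and posterior buds. Those called higher held 9.21% in digits and 9.63% in interdigital tissue, against 4.76%, 4.62% and 4.63% in the buds. These components were chosen on the same libraries, so the shares describe the size of the change and do not test it. Neither shift rested on a handful of components. The 10 largest gains made up 12.3% of the summed gain of components called higher, and 179 components were needed for 50% of it. The 10 largest losses made up 10.1% of the summed loss, and 267 components were needed for 50%. Components under the minimum score held 1.5% of the score in digits and 1.92% in interdigital tissue, against 1.32%, 1.1% and 1.17% in the buds. With 2 libraries against 3, an exact permutation test has 10 splits. It cannot give a one-sided p under 0.1, or under 0.2 where the one-sided p is doubled.

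**Figure D4:**
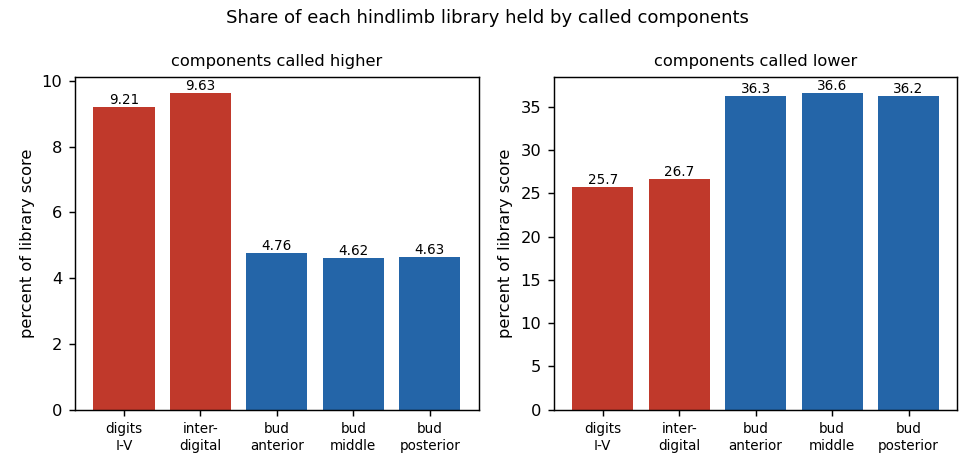
Percent of the total score of each hindlimb library held by the 1595 components called higher (left) and the 2824 called lower (right), with 1 bar per library, red for S15-17 and blue for S14. Components called higher hold 9.21% and 9.63% at S15-17 against 4.62% to 4.76% at S14, and those called lower hold 25.7% and 26.7% against 36.2% to 36.6%.

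Digits and interdigital tissue shared most of the large changes. Set against the mean log2 score of the 3 buds, 303 components were over 4-fold higher in digits and 295 in interdigital tissue, and 188 were so in both. Over 4-fold lower were 173 components in digits and 219 in interdigital tissue, with 121 in both. The counts of changes in 1 tissue were smaller. Over 4-fold higher in digits but under 2-fold higher in interdigital tissue were 26 components, and 27 showed the reverse. Over 4-fold lower in digits but under 2-fold lower in interdigital tissue were 12, and 39 showed the reverse. Of the 16022 tested components, 1080 lay above all buds in 1 tissue and below all buds in the other. That count required no minimum size of difference, so it cannot be set beside the 4-fold counts. These counts have no test, since each tissue had 1 library and both were set against the same buds.

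The 2 later tissues differed from each other by over 2-fold in 5.27% of tested components, 485 higher in digits and 359 higher in interdigital tissue. Among components called higher since the bud the share was 7.02%, with 65 higher in digits and 47 higher in interdigital tissue. Among those called lower it was 3.05%, with 56 and 30. The median log2 difference between digits and interdigital tissue was 0.02 in components called higher, 0.03 in those called lower and 0.05 in all tested. The spread between the 2 tissues enters the test behind the calls, so these shares are a description. Abundance differed too, with median scores of 168.2 in components called higher, 534.0 in those called lower and 206.4 in all tested. The mean score behind these medians covers more bud than later libraries.

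The widest split in favour of digits among called components with a mean of at least 50 over both tissues was that of comp2871_c0. It scored 233 in digits and 31 in interdigital tissue, against 20, 19 and 16 in the anterior, middle and posterior buds. The digit to interdigital ratio was 7.45 (95% exact interval for counting error 4.76 to 12.1, 136 and 23 reads). The bud level was even across parts, and interdigital tissue stayed near it. The stage difference of 2.17 in limma (SE 0.69, adjusted p = 0.0466) rested on the digit library. Without digits it was 0.73 (adjusted p = 0.305), without the anterior, middle or posterior bud the limma adjusted p was 0.0886, 0.0904 and 0.117, and voom on recovered reads gave 0.141. Its fetal metatarsal score of 1555 exceeded every other score of this component in the series.

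The widest split in favour of interdigital tissue was that of comp11576_c0. It scored 27 in digits and 203 in interdigital tissue, against 3, 10 and 0 in the anterior, middle and posterior buds. Both later scores lay above all buds, and the interdigital score was by far the highest. The digit to interdigital ratio was 0.135 (95% exact interval for counting error 0.0753 to 0.227, 16 and 149 reads). The stage difference was 4.42 (SE 1.10, limma adjusted p = 0.0176), and without interdigital tissue it was 2.99 (limma adjusted p = 0.156). Voom on recovered reads gave an adjusted p of 0.0656. In fetal metatarsals it scored 6.

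The bud part nearest to the later hindlimb differed between the 2 directions. For components called higher, the middle bud had the highest bud score in 37.0% of cases, the posterior in 30.8% and the anterior in 29.3%. Over all tested components the middle bud was highest in 40.1%, the posterior in 34.1% and the anterior in 23.8%. For components called lower, the anterior bud had the lowest bud score in 45.5%, the posterior in 29.8% and the middle in 23.4%. Over all tested components the anterior was lowest in 36.2%, the posterior in 30.9% and the middle in 30.7%. The anterior bud was therefore the nearest to S15-17 more often among called components than among all tested ones, in both directions. These shares have no test, since the buds are the libraries on which the calls were made.

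The forelimb, from libraries that the hindlimb test did not use, gave similar values for the same components. Forelimb digits II-V and the interdigital tissues between them were set against the 3 forelimb bud parts. Among the 1595 components called higher in hindlimb, the median log2 difference was 1.05 in hindlimb and 0.78 in forelimb. Among the 2824 called lower it was -0.69 in hindlimb and -0.59 in forelimb. The thumb side of the forelimb, digit I with the interdigital tissue beside it, gave 0.80 and -0.59 against the same forelimb buds. limma within the forelimb called 523 of the 1595 (32.8%) higher and 1098 of the 2824 (38.9%) lower, where it called 5.34% of all tested components higher and 9.38% lower. In total the forelimb had 2359 calls (14.7%) to the 4419 of the hindlimb on the same components. The median spread within a group was larger in forelimb, with an SD of 0.198 in hindlimb and 0.253 in forelimb on the log2 scale.

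**Figure D5:**
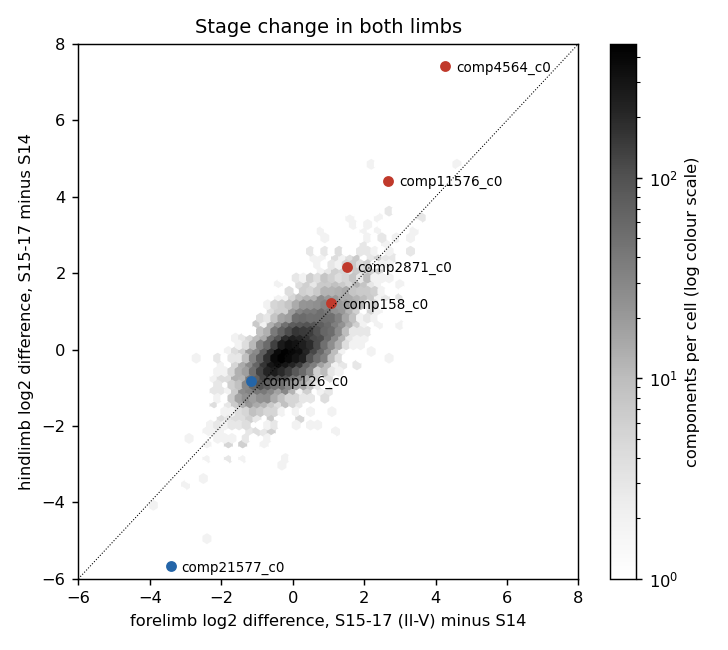
Log2(score + 1) difference between S15-17 and S14 in the hindlimb (vertical axis) against that in the forelimb, with parts II-V for S15-17 (horizontal axis), over the 16022 kept components; grey cells are shaded by the number of components on a log scale, coloured points are the named components and the dotted line marks equal change. The named components lie in the quadrants where both limbs have the same sign, with comp4564_c0 at 7.42 in hindlimb and 4.27 in forelimb.

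The change of the 6 named components had the same sign in both limbs, as in most called components. The forelimb difference was positive in 89.2% of the 1595 called higher and in 7.58% of the 2824 called lower. Over all 16022 tested components it was positive in 44.5%. In forelimb, comp4564_c0 scored 54 in digits II-V and 301 in the interdigital tissue, against 2, 4 and 19 in the anterior, middle and posterior buds, a log2 difference of 4.27 (limma adjusted p = 0.0253). The hindlimb change exceeded the forelimb change by 3.16 (SE 1.19), which did not pass the limma interaction test over all components (adjusted p = 0.378). Component comp158_c0 changed by 1.21 in hindlimb and 1.08 in forelimb. Component comp126_c0 changed by -0.82 in hindlimb and -1.16 in forelimb. Component comp21577_c0 had forelimb scores of 0 and 5 in digits II-V and interdigital tissue, against 29, 20 and 27 in the buds, a change of -3.41 where the hindlimb changed by -5.67. Its later scores were as low in forelimb as in hindlimb, and its bud scores of 94 to 131 in hindlimb lay above the 20 to 29 in forelimb. For comp2871_c0 and comp11576_c0 the forelimb change was 1.52 and 2.68, and neither passed the limma test there (adjusted p = 0.227 and 0.0813).

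A hindlimb change that differed from the forelimb change was not found at the threshold. The limb by stage interaction, fitted in limma over 10 libraries, called 0 of 16022 components (0%), the smallest adjusted p being 0.191, while 1881 components fell under 0.05 before adjustment. Voom on recovered reads also called 0, with 2010 under 0.05 before adjustment. The count was 11 when matched parts of the 2 limbs were taken as blocks, 3 without the middle hindlimb bud and 15 without forelimb digits II-V, so single differences between the limbs are not excluded. Forelimb groups were apart for 3221 higher components (20.1% of those tested) and 4868 lower ones (30.4%). Hindlimb groups were apart for 3526 (22%) and 5260 (32.8%). Of the 16022 tested, groups of both limbs were apart in the same direction for 1734 higher and 3239 lower components. They were apart in opposite directions for 145 that were higher in hindlimb and lower in forelimb, and for 112 with the reverse. Opposite directions were thus rarer than the same direction, and the counts that unrelated limbs would give were not computed.

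A pair of components was called in opposite directions in the 2 limbs, with parts II-V for the later forelimb. It is named for that, after the values were seen. Component comp5402_c0 scored 1007 in hindlimb digits and 1081 in hindlimb interdigital tissue, against 270, 792 and 463 in the anterior, middle and posterior hindlimb buds. In forelimb it scored 365 in digits II-V and 254 in interdigital tissue, against 815, 698 and 1083 in the buds. The later scores thus lay above all buds in hindlimb and below all buds in forelimb, with log2 differences of 1.17 and -1.48 (limma adjusted p = 0.0377 and 0.0111). The other, comp4463_c0, scored 154 in hindlimb digits and 268 in hindlimb interdigital tissue, against 1825, 267 and 1492 in the buds. The middle bud matched the later hindlimb level, so the groups overlapped, with a log2 difference of -2.14 (limma adjusted p = 0.048). In forelimb it scored 416 and 1399 at S15-17, against 150, 69 and 174 in the buds, a difference of 2.64 (limma adjusted p = 0.0217). The interaction was 2.65 for comp5402_c0 and -4.78 for comp4463_c0, with a limma adjusted p of 0.259 for each. On the thumb side, comp5402_c0 scored 752 in digit I and 607 in the interdigital tissue beside it. There comp4463_c0 scored 156 and 457. Both digit I scores lay within the range of the forelimb buds, while both interdigital scores lay outside it on the same side as parts II-V.

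Fetal metatarsals, a single later hindlimb library of skeletal tissue, held still more of its score in the components called higher and less in those called lower, as a sum. It played no part in choosing them, but no test was made, because a single library of another tissue has no replicate. Components called higher held 4.62% to 4.76% of the score in S14 buds, 9.21% to 9.63% at S15-17 and 18.6% in fetal metatarsals. Components called lower held 36.2% to 36.6%, 25.7% to 26.7% and 15.8%. The median score of the components called higher was 111.0 at S14, 249.0 at S15-17 and 306.0 in fetal metatarsals. For those called lower it was 631.2, 375.2 and 253.0. Over all tested components it was 205.0, 199.5 and 185.0. Single components did not share a course. Of the 1595 called higher, 721 scored above both S15-17 libraries in fetal metatarsals and 742 below both. Of the 2824 called lower, 632 scored above both and 1952 below both, and over all 16022 tested these counts were 5106 and 9136. The S15-17 libraries are those on which the calls were made, so these counts are a description. Component comp4564_c0 was high in both S15-17 hindlimb libraries and scored 0 in fetal metatarsals.

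Several components can belong to a single gene. The 16022 kept components carried 15492 assembly numbers, and 469 numbers had more than 1 kept component. The 4419 called components carried 4352 numbers. For 63 numbers 2 or more components were called, and in 23 of these the calls went in both directions.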

How the data were processed

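Total RNA from dissected autopod parts was DNase-treated and made into TruSeq libraries, per the labels' protocols. The deposited table holds a score per component and library. These scores are the authors' normalized counts rounded to whole numbers. CASAVA 1.8, RSEM and edgeR are named in the submitters' processing notes. The assembly, normalization and counting steps are not given in the sources used here. Whole reads were recovered by finding, per library, the score of 1 read. It was chosen so that 100% of nonzero scores up to 2000 equal a whole number of reads after rounding, within a tolerance of 0.5, and 99.981% to 100% of all nonzero scores then matched. Reads served for depth, counting intervals (exact, 95%) and voom only. Such intervals cover counting error only. Voom took library sizes that keep the deposited scale, so it is no check on scaling.

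limma 3.58.1 (R 4.3.3) was fitted to log2(score + 1), a scale that understates changes of low components, and variances were shrunk towards a trend on mean level. The stage fit used the 5 hindlimb libraries and the interaction fit used 10. p-values are two-sided and Benjamini-Hochberg adjusted over kept components, with calls under 0.05. Both fits were run on simulated data with 1 fixed spread and no differences between parts. A pass was required of the stage fit only. The named components are, in each direction, those with the largest log2 difference and the largest score difference among called components with separate groups, and the widest digit to interdigital difference. Up to 2 per direction were to be named for the interaction, which called none. Alternatives were other pseudocounts, minimum scores, scalings, variance shrinkage, voom, a 2-fold test, a fit over all 14 libraries, each library left out, the thumb side, and matched parts as blocks. Components, tests and rules were chosen with earlier results of these data known. The remaining values came from Python 3.11.15 (pandas 2.3.3, numpy 2.4.6, scipy 1.17.1), and plots from matplotlib 3.10.9.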

Additional observations from a re-analysis of the deposited data

How the results depend on the processing

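The stage change called 4419 components. The count stayed within 1.5 times that with pseudocounts of 0.25 (4391) and 5 (4452), minimum mean scores of 10 (4567) and 50 (3967), both other scalings (4156 and 4273), robust variance shrinkage (4477), voom (4435) and all 14 libraries in 1 fit (3630). It was 1798 with no filter, which tested 60850 components, and 181 in the test against a 2-fold change. Leaving out 1 library gave 2778 to 3937. The interaction called 0 components, 11 with matched parts as blocks, and 0 to 15 with 1 library left out, where a lone later library is assumed to vary like the buds. The cause of these changes was not tested. Against the thumb side it called 0, with 2830 at an unadjusted p under 0.05. The 6 named components kept their direction in every alternative that tested them. The log2 difference of comp158_c0 (1.21) and comp126_c0 (-0.82) did not pass the test against a 2-fold change, and they were called in the other alternatives. The calls of comp2871_c0 and comp11576_c0 were lost with no filter (limma adjusted p = 0.2 and 0.115), in the test against a 2-fold change and with voom. That of comp2871_c0 was also lost in limma at a minimum mean score of 50 (adjusted p = 0.0509), with robust shrinkage (0.0866) and with all 14 libraries in 1 fit (0.0977). For the stage change within the hindlimb, no paired analysis was possible because the labels give no replicate numbers, and bud parts have no counterpart among the later parts of the same limb. Depth limits the components with few reads: 3 reads are the whole S15-17 signal of comp21577_c0.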
